A study of Mus musculus with 12 samples.

Results

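The genes Kel, Gm38403, 1700029B22Rik, B4galnt2, Gldc, Xkr4 and Pcmtd1 were followed through 12 RNA-seq libraries of mouse skin. These 7 genes were chosen on the values of these same libraries, because each fell in Pparg-/-epi mice with all 6 Pparg-/-epi libraries below all 6 WT libraries and had been given no role in the sebaceous gland. The fall itself is therefore a description and carries no test. They are 7 of the 14533 genes listed in the deposited counts. Groups separate in this direction were found for 574 of these genes, 415 of them also called lower. The condition alone thus does not define the 7, which are a choice among many genes that meet it. The description "strong fallers without a sebaceous role" did not hold for each of them. Gldc is on the list of sebaceous genes that the study itself compiled, and Pcmtd1 fell by 0.67 on the log2 scale, which placed it 654th among the 739 genes called lower.

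The libraries came from frozen, non-lesional dorsal skin scraped down to the superficial dermis, with 1 library per untreated C57BL/6 mouse. The 6 Pparg-/-epi mice carried 2 floxed Pparg alleles and Cre recombinase under the keratin 14 promoter, which is active in basal keratinocytes and in the follicle and gland cells that descend from them. The 6 WT mice were sibling controls without Cre, as the study describes them. Mice were 8 to 13 weeks old by the labels, with 3 females and 3 males among WT mice and 4 females and 2 males among Pparg-/-epi mice. Other cells of the scraped tissue kept Pparg, and the counts of Pparg, summed over the whole gene, did not tell the genotypes apart. Total counts ranged from 10120840 to 18851255 per library, and the RNA integrity number (RIN) from 5.7 to 8.6. Levels are given as counts scaled to a common library total with TMM factors (CPM), where 1 count was worth 0.0520 to 0.107 CPM.

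PPARG is a nuclear receptor that, with its partner RXR, binds direct repeats of a short core motif and switches on genes of lipid storage and synthesis. In skin it is best known for its part in the maturation of sebocytes, the lipid-filled cells of the sebaceous gland, whose genes include Fa2h, a fatty acid hydroxylase, and Scd3, a desaturase. The members have other known roles. Kel encodes the Kell blood group glycoprotein, a zinc endopeptidase of the M13 family that cleaves big endothelin-3 and is known from red cells. B4galnt2 encodes the transferase that adds N-acetylgalactosamine to sialylated chains to form the Sda antigen. Gldc encodes the decarboxylase of the mitochondrial glycine cleavage system. Xkr4 belongs to the XK-related family of membrane proteins that expose phosphatidylserine in dying cells, and Pcmtd1 encodes a relative of the methyltransferase that repairs isoaspartyl residues in proteins. Gm38403 and 1700029B22Rik are annotated as long non-coding RNAs without a known function.

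The 250 bases before the transcription start are shown for the 4 members that fell most, as the place where a shared core motif could be looked for, with those of Scd3 for comparison. They were taken from RefSeq promoters of GRCm38.p6 (the mm10 assembly), run 5′ to 3′ along the gene, and carry capitals where GATAA or TATAAA was found on either strand. Kel, Gm38403, 1700029B22Rik, B4galnt2 and Scd3 in turn lay at chr6:41704326-41704575 on the minus strand, chr10:118927144-118927393 on the minus strand, chr7:131146189-131146438 on the plus strand, chr11:95914872-95915121 on the minus strand and chr19:44203038-44203287 on the plus strand.
Kel: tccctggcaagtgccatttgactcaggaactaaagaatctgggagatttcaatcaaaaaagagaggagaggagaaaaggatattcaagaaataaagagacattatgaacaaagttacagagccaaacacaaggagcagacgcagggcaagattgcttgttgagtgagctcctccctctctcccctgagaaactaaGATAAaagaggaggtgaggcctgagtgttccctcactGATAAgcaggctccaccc
Gm38403: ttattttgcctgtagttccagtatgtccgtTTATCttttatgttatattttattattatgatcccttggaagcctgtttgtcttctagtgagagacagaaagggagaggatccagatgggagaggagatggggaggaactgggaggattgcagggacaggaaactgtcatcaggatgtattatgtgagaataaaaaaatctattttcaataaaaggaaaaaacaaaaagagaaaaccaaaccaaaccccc
1700029B22Rik: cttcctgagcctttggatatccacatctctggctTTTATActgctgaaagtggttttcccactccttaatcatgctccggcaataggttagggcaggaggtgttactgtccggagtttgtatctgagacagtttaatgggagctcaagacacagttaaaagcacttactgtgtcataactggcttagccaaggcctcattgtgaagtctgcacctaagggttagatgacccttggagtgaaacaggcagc
B4galnt2: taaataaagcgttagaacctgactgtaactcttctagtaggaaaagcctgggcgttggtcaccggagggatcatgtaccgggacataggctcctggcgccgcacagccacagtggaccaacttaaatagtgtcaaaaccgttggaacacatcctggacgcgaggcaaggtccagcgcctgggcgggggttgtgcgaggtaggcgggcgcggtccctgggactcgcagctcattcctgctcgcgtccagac
Scd3: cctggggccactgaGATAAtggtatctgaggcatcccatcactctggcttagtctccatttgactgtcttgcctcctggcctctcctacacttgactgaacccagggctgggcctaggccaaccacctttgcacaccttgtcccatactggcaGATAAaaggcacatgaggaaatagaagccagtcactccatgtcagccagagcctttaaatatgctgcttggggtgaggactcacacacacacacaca

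No AGGTCA, the core motif of PPARG and many other nuclear receptors, was found on either strand in these windows or in that of Gldc, and neither was its direct repeat with 1 base between (AGGTCANAGGTCA). Of 32851 RefSeq windows of the same length, 14.0% held the core motif and 0.033% the direct repeat. The letters GATAA were found in Kel at 55 and 18 bases before the start and in Scd3 at 236 and 97 bases. In Gm38403 they were found at 220 bases, on the opposite strand. This short motif was present in 22.6% of all windows. The TATAAA of 1700029B22Rik, read on the opposite strand, began 216 bases before the start and the window of Gldc held CCAAT, also on the opposite strand, at 66 bases. These motifs were found in 12.4% and 33.8% of windows. Their GC content ran from 38.0% in Gm38403 to 59.6% in Gldc, around a median of 52.4% over all windows. A match is a description of letters, and its absence from these windows says nothing about binding elsewhere.

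Kel (chr6:41686330-41704325, minus strand, 19 exons in the refGene models of mm10) all but disappeared in Pparg-/-epi mice. The WT libraries ran from 2.11 to 14.7 CPM around a median of 7.72, and the Pparg-/-epi libraries from 0 to 0.271 around a median of 0.144. In counts, the lowest WT library held 33 reads of Kel and the highest Pparg-/-epi library 3. No library of either group came near the other, as the lowest WT level was 7.78 times the highest Pparg-/-epi level. The means were 7.85 ± 4.95 and 0.130 ± 0.096 CPM (SD, n = 6 each), a log2 fold change of -5.93 with a standard error of 0.66, the eighth largest fall of all listed genes. From the summed counts, 661 against 10, the WT level was 65.8 times higher, with an exact 95% counting interval from 35.6 to 138. Such intervals cover counting error only, not the spread between mice.

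The long non-coding RNAs behaved in the same way at lower counts. 1700029B22Rik (chr7:131146439-131150578, plus strand) had the sixth largest fall of all genes, a log2 fold change of -6.18 ± 0.81 (SE). Its WT libraries ran from 1.92 to 17.9 CPM around a median of 5.53, and its Pparg-/-epi libraries from 0 to 0.344 around a median of 0.0676. WT mouse 3 stood far above the other WT mice, and the groups did not meet. Gm38403 (chr10:118920381-118927143, minus strand, 4 exons) lay between 1.09 and 4.57 CPM in WT libraries, median 2.93, and between 0 and 0.182 in Pparg-/-epi libraries, median 0.0520. Its log2 fold change was -5.06 ± 0.67 (SE). For both genes each Pparg-/-epi library held 0 to 4 counts, so levels among these mice could not be ranked at this depth.

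B4galnt2 (chr11:95863559-95914871, minus strand, 11 exons) was the most abundant of the 4 genes that fell most. WT libraries lay between 16.8 and 74.8 CPM, median 49.6, and Pparg-/-epi libraries between 0.520 and 3.08, median 1.46. The gap between the groups was wide, as the lowest WT level was 5.45 times the highest Pparg-/-epi level. The means of 45.95 ± 22.3 and 1.60 ± 1.17 CPM (SD, n = 6 each) gave a log2 fold change of -4.90 ± 0.55 (SE), the eleventh largest fall. Unlike those of Kel and the non-coding RNAs, its counts in Pparg-/-epi mice, from 9 to 37, were above the floor of 3 counts per library. In the GENCODE M21 annotation 263 bases of its exons are also covered by Gm11534 on the opposite strand, and 7.16% of its 75-base stretches occur in that gene. The strand setting of the counting is not given in the sources used here, so reads of these overlapping bases could come from either gene.

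Gldc (chr19:30098441-30175441, minus strand, 25 exons) fell less and kept a clear level in Pparg-/-epi mice. Its lowest, median and highest levels were 15.4, 38.2 and 52.96 CPM among WT libraries and 3.52, 8.28 and 11.1 CPM among Pparg-/-epi libraries. The groups stayed apart by a narrow margin, with the lowest WT level 1.39 times the highest Pparg-/-epi level. The log2 fold change was -2.26 ± 0.35 (SE), and Pparg-/-epi mice held 20.9% of the WT mean. Xkr4 (chr1:3214482-3671498, minus strand, 3 exons) was rare in both groups, with lowest, median and highest levels of 0.852, 1.07 and 1.68 CPM among WT libraries and 0.0859, 0.221 and 0.666 CPM among Pparg-/-epi libraries. Its groups were separate only after scaling for library size, since the lowest WT count was 8 and the highest Pparg-/-epi count 11. Its log2 fold change was -1.89 ± 0.41 (SE).

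Pcmtd1 (chr1:7088920-7173628, plus strand, 6 exons) was the most abundant member and fell least. The WT libraries lay between 206.5 and 342 CPM, median 274, and the Pparg-/-epi libraries between 154 and 183, median 169. The Pparg-/-epi mice lay close together, with an SD of 11.2 CPM against 50.8 in WT mice. They held 62.8% of the WT mean, a log2 fold change of -0.67 ± 0.12 (SE). In unscaled counts the groups of Pcmtd1 overlapped, from 2841 upward in WT and up to 2959 in Pparg-/-epi mice. It is also the member nearest to the limit of the selection, with its lowest WT level 1.13 times its highest Pparg-/-epi level. Just outside, Trove2 missed the condition of separate groups, with a lowest WT level of 60.53 CPM and a highest Pparg-/-epi level of 60.55 CPM. Its log2 fold change was -0.68.

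**Figure D1:**
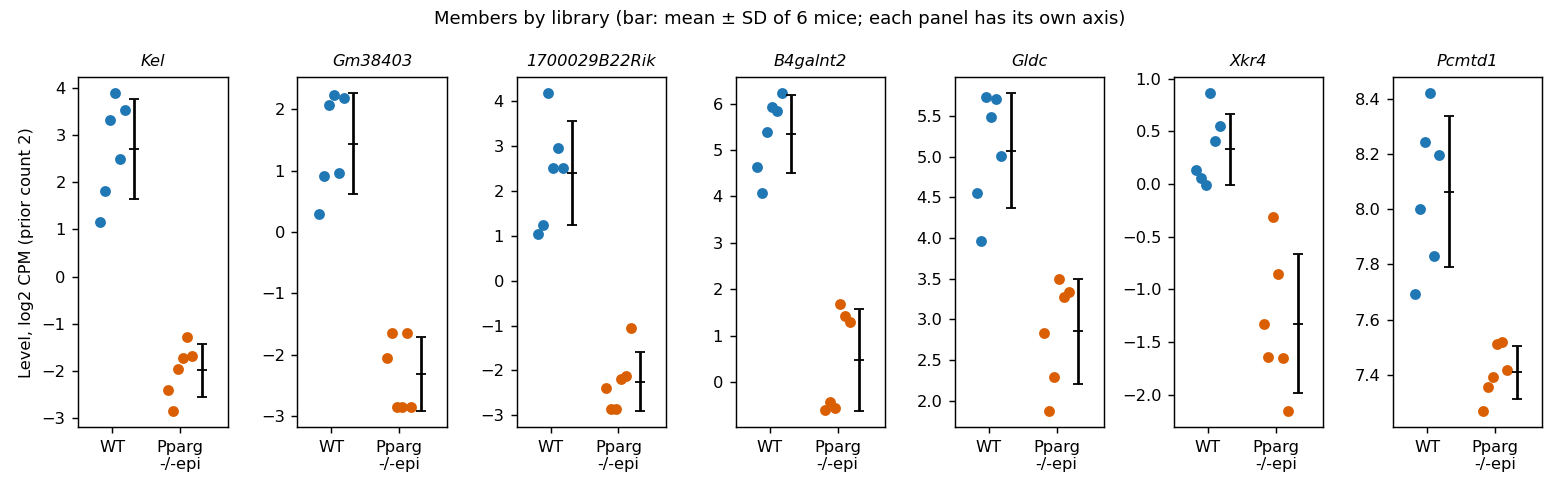
Level of each member in each library as log2 CPM with a prior count of 2 (vertical axis, separate for each panel), with WT mice in blue, Pparg-/-epi mice in orange and the mean ± SD of 6 mice as bars. In all 7 panels the orange points lie below the blue ones, by a wide gap for Kel, Gm38403, 1700029B22Rik and B4galnt2 and a narrow one for Xkr4, Gldc and Pcmtd1.

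By the calling rule of the study's threshold, a log2 fold change of at least 0.6 in size with an adjusted p under 0.05 in edgeR's quasi-likelihood test, all 7 members were called lower, where 5.08% of the 14533 genes were. Groups that did not overlap were found for all 7 members and for 3.95% of all genes. Both counts follow from how the members were picked, and nothing is read from them. Compared per length, as RPKM (CPM per kilobase of exon), the WT mean level was 51.8 for Pcmtd1, 11.2 for B4galnt2, 9.73 for 1700029B22Rik, 9.69 for Gldc, 3.12 for Kel, 1.25 for Gm38403 and 0.317 for Xkr4. B4galnt2, 1700029B22Rik and Gldc did not differ beyond their SDs, which were 5.46, 8.41 and 4.12. In these bulk libraries, fewer cells of a type and less RNA per cell cannot be told apart.

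**Figure D2:**
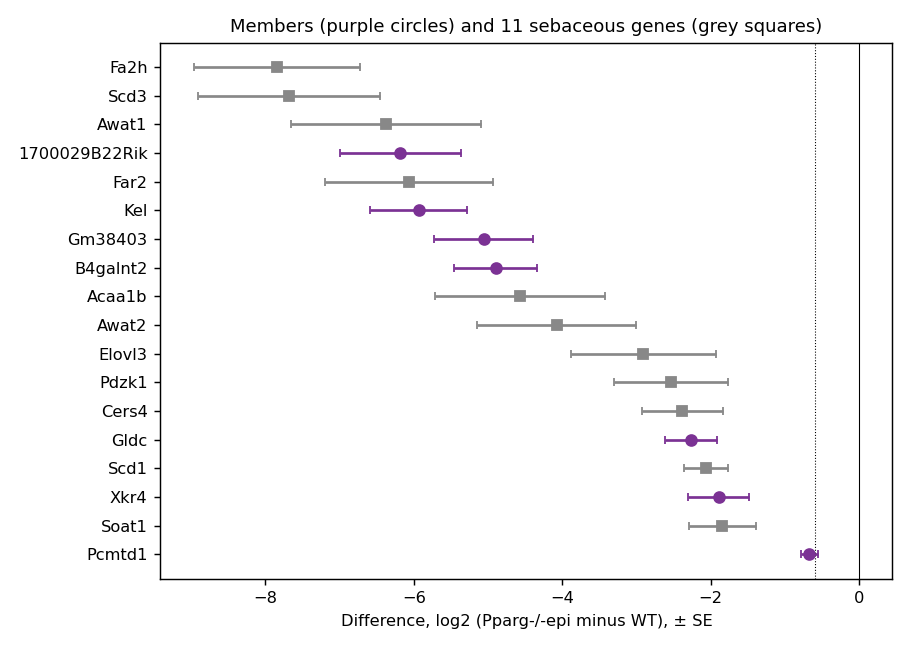
Difference of Pparg-/-epi from WT mice as log2 fold change (horizontal axis) with its standard error, for the 7 members (purple circles) and the 11 sebaceous genes (grey squares), with the threshold of -0.6 dotted. Kel, Gm38403, 1700029B22Rik and B4galnt2 lie between Awat1 and Acaa1b, and Pcmtd1 lies nearest to 0.

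The members were then set beside the sebaceous genes library by library. Of the 11 sebaceous genes of the study other than Gldc, 10 were called lower in Pparg-/-epi mice, and their median log2 fold change was -4.08, beside a median of -0.01 over all genes. Among them Fa2h and Scd3 had log2 fold changes of -7.85 and -7.68, both larger in size than that of any member. In WT mice 8 of the 11 sebaceous genes varied more than any member, and Scd1, Soat1 and Cers4 did not. Fa2h ran from 7.25 to 209.9 CPM and Scd3 from 6.61 to 357 CPM, a span of 29.0 and 54.0 times, whereas that of Scd1 was 3.61 times. Among the members the span was widest for 1700029B22Rik, at 9.34 times, and 6.98 times for Kel, 4.46 for B4galnt2, 3.43 for Gldc and 1.66 for Pcmtd1.

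The WT mice with the most Scd3, mice 1 and 2, were the 2 with the least Kel, Gm38403, 1700029B22Rik, B4galnt2 and Gldc. For Fa2h the WT mice formed 2 separate sets, mice 1, 2 and 5 at 190.5, 209.9 and 181 CPM and mice 3, 4 and 6 at 7.25, 26.0 and 15.2 CPM, so its correlations over the 6 mice, which are among the 42 relations adjusted together, are not given. Kel stood at 2.11, 3.40 and 5.53 CPM in the mice high in Fa2h and at 9.91, 14.7 and 11.5 CPM in the mice low in Fa2h. Gm38403 stood at 1.09, 1.75 and 1.82 CPM in the former and at 4.05, 4.57 and 4.41 CPM in the latter. Pcmtd1 stood at 206.5, 256 and 227 CPM in the former and at 303, 342 and 293 CPM in the latter. All 3 genes were thus lower in each WT mouse high in Fa2h than in each WT mouse low in it. The mice were split after the data were seen. The share of all listed genes with this order was not counted, so no relation to Fa2h is read from it. B4galnt2 did not follow this order, with 57.2 CPM in mouse 5, which was high in Fa2h, and 41.98 CPM in mouse 3, which was lowest in Fa2h. Gldc likewise stood at 51.9 CPM in mouse 5 and at 31.9 CPM in mouse 6.

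Against Scd3, whose 6 WT levels were spread out, all 7 members had a negative correlation of log2 CPM among WT mice, with Pearson's r from -0.85 to -0.33. For Kel r was -0.85 (Spearman's rho -0.77, exact permutation test, two-sided, p = 0.0431 for r and 0.103 for rho, adjusted p = 0.251 and 0.367 over 42 relations). For B4galnt2 r was -0.83 (rho -0.83, exact permutation p = 0.0486 for r and 0.0583 for rho, adjusted p = 0.251 and 0.367). None of the 42 relations, which cover 7 members, 3 sebaceous measures and 2 groups, passed an adjusted p of 0.05, and 3 had an unadjusted p under 0.05 by r and 0 by rho. The smallest p that 6 mice allow is 0.00139, which alone among 42 would be adjusted to 0.0583, so the design could hardly have passed a lone relation. With the mean log2 CPM of the 11 sebaceous genes, r was negative for all 7 members too, from -0.86 to -0.30, and from -0.96 to -0.22 without mice 2 and 3, the farthest from the median of that mean. These relations share the same 6 mice and largely the same sebaceous genes, and are not separate evidence.

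The negative relations with Scd3 rested largely on WT mice 1 and 2, which were farthest from the median of Scd3. These 2 mice also stood apart by their labels, being the only WT mice whose names lacked a prefix that the other 4 WT mice shared (what the prefix of a mouse's name stands for is not given in the sources used here), the youngest at 8 and 9 weeks, and those with the highest RIN at 7.4 and 8.6. Among the other 4 WT mice, which is also the value within that prefix, r with Scd3 was -0.49 for Kel, -0.72 for Gm38403, -0.36 for 1700029B22Rik and -0.48 for Pcmtd1. The sign turned for B4galnt2, Gldc and Xkr4, with r of 0.08, 0.45 and 0.41. Markers of other cells moved too. Summed endothelial markers (6 of 6 listed) stood at 59.7, 115 and 30.9 CPM in mice 1, 2 and 5 and at 6.07, 12.2 and 5.22 CPM in mice 3, 4 and 6, the order in which Fa2h was high and low, and summed adipocyte markers were highest in mice 2 and 5, at 126 and 46.3 CPM, beside 2.45 to 9.41 CPM in the others. The part of these cells was not tested, and name prefix, age, RIN and tissue content cannot be told apart across these mice.

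**Figure D3:**
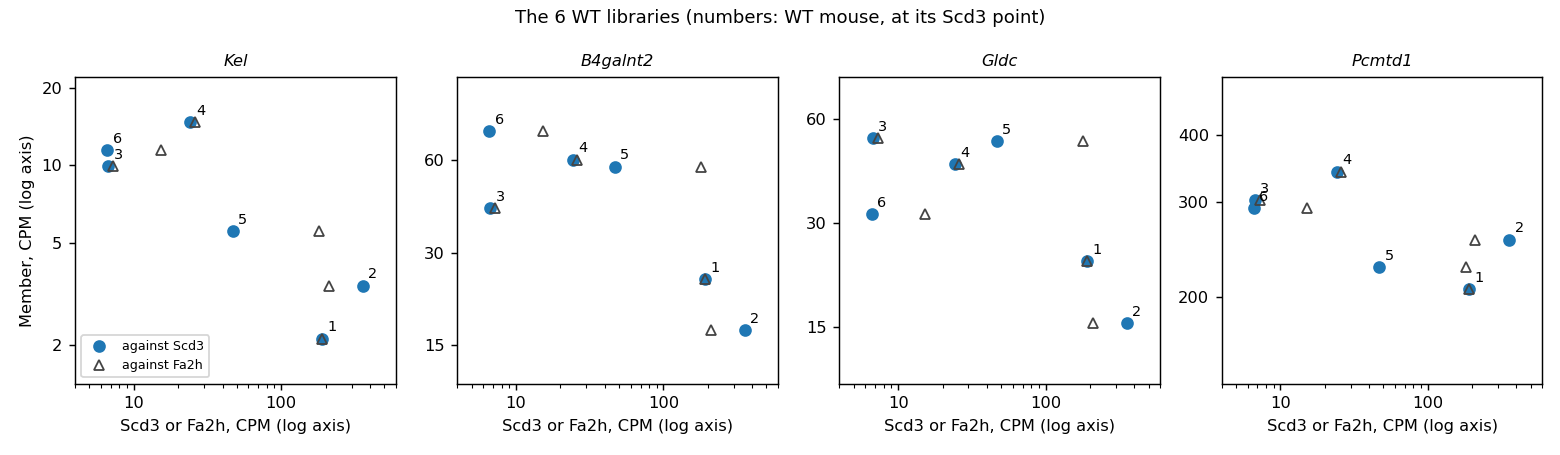
Level of Kel, B4galnt2, Gldc and Pcmtd1 (vertical axis, CPM, log scale) against Scd3 (filled circles) and Fa2h (open triangles) in CPM (horizontal axis, log scale) in the 6 WT libraries, numbered by mouse. Mice 1 and 2 lie at the lower right for Kel, B4galnt2 and Gldc, and the other 4 mice have no common slope across the panels.

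Among Pparg-/-epi mice few reads of Fa2h and Scd3 were left, at most 21 and 19 counts per library, while Scd1 kept 2164 to 4614. Of 21 relations there 15 were negative and none passed the adjusted threshold. The one with an unadjusted p under 0.05 was that of Gm38403 with the sebaceous mean, with r of 0.91 and rho of 0.88 (exact permutation test, two-sided, p = 0.0333 for r and 0.05 for rho, adjusted p = 0.251 and 0.367), and r was 0.99 without the 2 farthest mice. Gm38403 held 0 counts in 3 of those 6 mice and 2 or 3 in the others, so this relation compares presence with absence of a few reads.

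The members did not all vary together among WT mice. Kel and Gm38403 were ranked identically, with r of 0.97 and rho of 1.00 (exact permutation test, two-sided, p = 0.00139 for r and 0.00278 for rho, adjusted p = 0.0292 and 0.0583 over 21 pairs), and r was 0.96 without the 2 mice farthest from the median of Kel. Each p is the smallest the design allows for its measure. By rho the pair did not pass, and a lone pair among 21 could not have passed. The remaining 20 pairs did not pass by either measure, the lowest adjusted p for r being 0.131 (exact permutation test). Their r ran from 0.05 for 1700029B22Rik with Xkr4 to 0.95 for Gm38403 with Pcmtd1, and each was positive.

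WT mice 1 and 2 were the lowest 2 of the WT group for 5 of the 7 members. Kel stood at 2.11 and 3.40 CPM in them and at 5.53 to 14.7 CPM in the other 4 mice. B4galnt2 stood at 24.6 and 16.8 CPM in them and at 41.98 to 74.8 CPM in the others. Gldc stood at 23.3 and 15.4 CPM against 31.9 to 52.96 CPM. The same order held for Gm38403 and 1700029B22Rik and did not hold for Xkr4 and Pcmtd1. Over all listed genes both mice lay below the other 4 in 2766, or 19.03%. When the Pparg-/-epi mice were compared with these 2 WT mice alone, the log2 fold changes shrank to -4.43 for Kel, -4.01 for Gm38403, -4.49 for 1700029B22Rik, -3.72 for B4galnt2, -1.33 for Gldc and -0.43 for Pcmtd1, and 4 of the 7 members were still called lower, without Gldc, Xkr4 and Pcmtd1.

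The groups met in 1 name prefix alone, through WT mouse 2 and Pparg-/-epi mouse 10. Within it B4galnt2 was 16.8 against 3.08 CPM, Gldc 15.4 against 11.1 CPM and Pcmtd1 256 against 182 CPM. Kel had 64 counts in the WT mouse and 2 in its counterpart, 1700029B22Rik 42 and 1, Gm38403 33 and 0, and Xkr4 17 and 5. The direction in this pair was fixed by how the members were chosen, and the pair has no replicate. With the prefix as a block in the model, an alternative added after the data were seen, in which the difference between genotypes rests on this pair, 1 of the 7 members was called lower, B4galnt2 at a log2 fold change of -2.44. The log2 fold change of Gldc was then -0.47, and 129 genes were called lower in place of 739.

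Among Pparg-/-epi mice, the 3 with the lower name prefixes (mice 7 to 9) lay below the 3 with the higher ones (mice 10 to 12) in B4galnt2, Gldc and Pcmtd1, an order that 22.12% of all listed genes shared. The step was clearest for B4galnt2, at 0.520 to 0.606 CPM in the former and 2.32 to 3.08 CPM in the latter. Gldc stood at 3.52 to 6.97 CPM and at 9.58 to 11.1 CPM. Pcmtd1 stood at 154 to 168 CPM and at 171 to 183 CPM. The remaining 4 members had too few counts in these mice to be ordered, or, for Xkr4, overlapped. Mice 7 to 9 had RIN from 7.7 to 8.6, were females and were 12 or 13 weeks old, and mice 10 to 12 had RIN from 5.7 to 7.7, included the 2 males and were 8 to 12 weeks old. Summed endothelial markers stood at 125 to 163 CPM in the former and at 25.4 to 53.3 CPM in the latter. Prefix, RIN, sex, age and endothelial content thus moved together here, and their part was not tested separately.

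Sex and RNA quality were not used to choose the members and were tested over all genes with genotype in the model. Between males and females within genotype, 2 of 14533 genes (0.0138%) passed an adjusted p of 0.05 in edgeR's quasi-likelihood test, 2340 had an unadjusted p under 0.05, and no member was among the 2. The member with the largest difference was 1700029B22Rik, higher in males by 1.30 ± 0.63 on the log2 scale (SE, adjusted p = 0.319), followed by Gm38403, with a log2 difference of -0.90 ± 0.60 for males minus females (adjusted p = 0.427). Gldc was 0.61 ± 0.31 higher in males (adjusted p = 0.332). The difference between genotypes was not shown to differ between the sexes for any gene (0%), with 741 genes at an unadjusted p under 0.05 and 4 genes past the adjusted threshold with edgeR's likelihood ratio test, none of them a member. For the members the adjusted p of this interaction was between 0.895 and 0.999, with standard errors up to 2.03, which leaves sizeable differences within the error.

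RIN moved with the level of B4galnt2. Its log2 CPM was lower by 0.69 ± 0.20 for each unit of RIN within genotype (edgeR's quasi-likelihood test, adjusted p = 0.0459), in a comparison in which 13.1% of all genes were called. Gldc, at -0.47 ± 0.14 per unit, and 1700029B22Rik, at -0.91 ± 0.30 per unit, were just past the other side of the threshold (adjusted p = 0.0504 and 0.0566). Kel stood at -0.61 ± 0.28 (adjusted p = 0.139), Gm38403 at -0.29 ± 0.32 (adjusted p = 0.527), Pcmtd1 at -0.06 ± 0.06 (adjusted p = 0.517) and Xkr4 at 0.01 ± 0.22 (adjusted p = 0.984). Without WT replicate 2, 3 or 6, or Pparg-/-epi replicate 7, 8 or 12, no gene passed, so the count rests on single libraries, and B4galnt2 was called in 6 of 15 alternatives (adjusted p from 0.0120 to 0.280), Gldc also in 6 (0.0213 to 0.291), 1700029B22Rik in 2 (0.0243 to 0.281) and the other members in none (0). With RIN in the model all 7 members were still called lower in Pparg-/-epi mice, which follows largely from how they were picked.

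**Figure D4:**
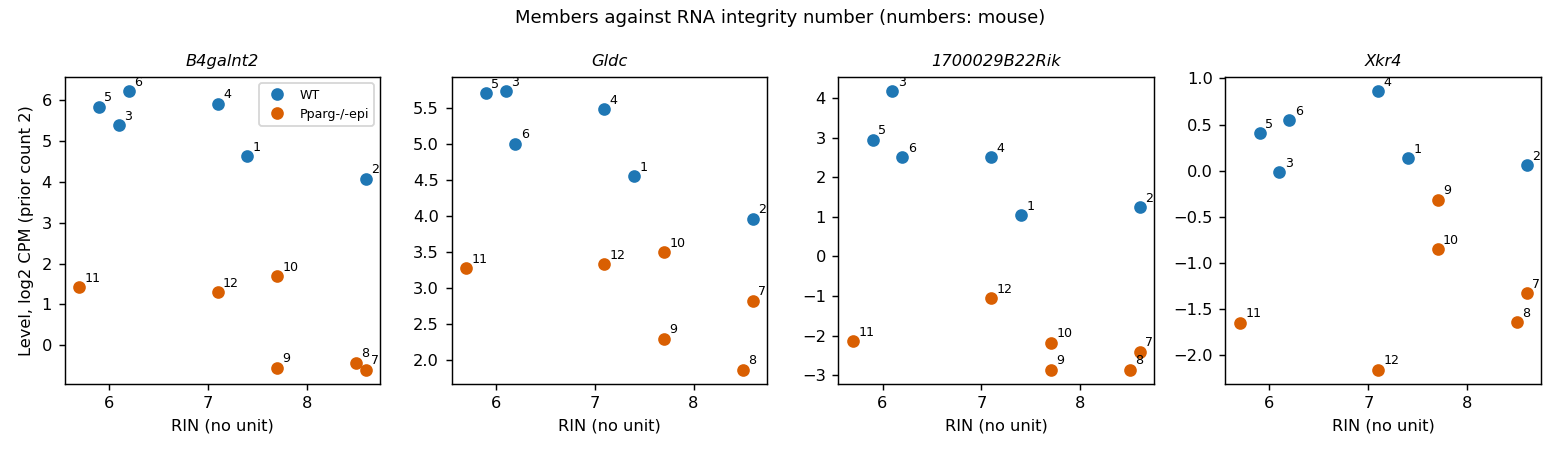
Level of B4galnt2, Gldc, 1700029B22Rik and Xkr4 as log2 CPM with a prior count of 2 (vertical axis) against RIN (horizontal axis, no unit) for each mouse, numbered, with WT mice in blue and Pparg-/-epi mice in orange. Within each colour B4galnt2 and Gldc are lower at high RIN, and 1700029B22Rik is so among WT mice, with WT mouse 2 at a RIN of 8.6 among the lowest. The orange points of 1700029B22Rik rest on 0 to 4 counts and cannot be ranked. Xkr4 has no slope (0.01 per unit).

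The genes that work beside the members were examined next, from lists set by family and pathway. No listed partner of Gldc was called with it. Of 16 listed genes of glycine cleavage, serine synthesis and the folate one-carbon pathway, none (0) were called in either direction in edgeR's quasi-likelihood test. Of all listed genes 10.3% were, a share at which a list of 16 would hold few. In this list 2 had an adjusted p under 0.05 with a change below the size threshold, Psat1 at 0.44 ± 0.13 and Mthfd2l at -0.59 ± 0.18 (log2, SE). Amt, the aminomethyltransferase of the glycine cleavage system, differed by -0.44 ± 0.19 (log2, adjusted p = 0.146). Gcsh, the lipoyl carrier protein of the system, had 0.10 ± 0.16 (adjusted p = 0.748), and Dld, its dehydrogenase, -0.14 ± 0.11 (adjusted p = 0.435). The median over the list was 0.10.

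Around Kel, the list of M13 endopeptidases and endothelins held 8 listed genes, of which 2 were called higher and 0 lower. Of all 14533 listed genes, 754 were called higher and 739 lower. Edn1, the gene of endothelin-1, rose from 2.96 ± 1.58 to 17.0 ± 6.39 CPM (SD, n = 6 each), a log2 fold change of 2.51 ± 0.36 (SE, edgeR adjusted p = 0.000942). Ece1, the main endothelin-converting enzyme and a relative of Kel, rose by 0.69 ± 0.18 (adjusted p = 0.0203). Edn3, whose precursor Kell is known to cleave, stood at 0.928 ± 0.573 and 1.17 ± 0.779 CPM, a log2 fold change of 0.31 ± 0.56 (adjusted p = 0.763). Mme, another member of the family, had 0.31 ± 0.52 (adjusted p = 0.745).

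Most listed relatives of B4galnt2 were not called. Of 17 listed N-acetylgalactosaminyl-, galactosyl- and sialyltransferases, 1 was called lower, 1 higher and 15 neither, beside 10.3% of all listed genes called in either direction. B4galnt1, the ganglioside GM2 synthase and closest in name, rose from 53.7 ± 8.21 to 112 ± 9.98 CPM, a log2 fold change of 1.06 ± 0.11 (edgeR adjusted p = 0.000154). B4galt4, a galactosyltransferase, moved the other way, by -1.31 ± 0.24 (log2, adjusted p = 0.00313). B4galnt3 differed by 0.55 ± 0.20 (adjusted p = 0.0749).

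None (0) of the 6 listed XK-family genes and scramblase partners was called, nor (0) of the 6 relatives and cullin-ligase partners of Pcmtd1. Of all listed genes 10.3% were called in either direction. Xkr8, the widely expressed relative of Xkr4, stood at 2.48 ± 0.668 and 1.98 ± 0.503 CPM, a log2 fold change of -0.32 ± 0.26 (edgeR adjusted p = 0.456). Pcmtd2, the closest relative of Pcmtd1, had -0.36 ± 0.10 (adjusted p = 0.0256), short of the size threshold, in the direction of Pcmtd1. Pcmt1, the repair enzyme itself, had 0.02 ± 0.08 (adjusted p = 0.923).

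Markers of other cells that the scraped tissue can hold were read beside the members. Of 13 erythroid markers only Alas2 was among the listed genes, at 0.269 to 2.71 CPM in WT and 0.416 to 1.76 CPM in Pparg-/-epi mice, and the globin genes were not among them. Kel was thus read at up to 14.7 CPM in libraries in which the other erythroid markers of the list did not reach the table. That table holds only genes above 0.5 CPM in at least 6 libraries and leaves out reads with several positions. The absence of these markers is therefore no measure of red cell RNA. Summed fibroblast markers (6 of 6 listed, 0 called) ran from 1014 to 34533 CPM in WT and from 5324 to 11169 CPM in Pparg-/-epi mice. Summed skeletal muscle markers (5 of 5 listed, 0 called) ran from 5.22 to 8992 CPM and from 2.41 to 357 CPM, melanocyte markers (4 of 6 listed, 0 called) from 3.52 to 38.0 and from 10.5 to 166 CPM, and Schwann cell markers (7 of 7 listed, 1 lower and 0 higher) from 133 to 251 and from 90.6 to 148 CPM. None of the endothelial (0 called, summed to 5.22 to 115 CPM in WT and 25.4 to 163 CPM in Pparg-/-epi mice), adipocyte (5 of 5 listed, 0 called, 2.45 to 126 and 7.07 to 46.6 CPM) and hair follicle markers (6 of 6 listed, 0 called) was called. The keratinocyte markers that define the tissue were abundant, basal ones (4 of 4 listed) summing to 7565 to 14353 CPM in WT and 9749 to 13639 CPM in Pparg-/-epi mice, with Krt14 called higher and Krt15 lower. Of the suprabasal markers (4 of 4 listed) Ivl was called higher, and of Langerhans and T cell markers (3 of 4 listed) Cd3e was called lower. The groups overlapped in each of the sums given, and the part of such cells in the fall of the members was not tested.

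Among the listed genes nearest to the members on their chromosomes, 4 of 26 were called lower, beside 5.08% of all genes, and 1 higher. On the side of Kel at lower coordinates, Trpv6, a calcium channel gene 49925 bases away, had a log2 fold change of -1.22 ± 0.28 (edgeR adjusted p = 0.0114). Ephb6 next to it differed by -0.23 ± 0.13 (adjusted p = 0.249). On the side of Gldc at lower coordinates, Il33, the gene of an epidermal alarmin 137726 bases away, fell by 0.86 ± 0.25 (adjusted p = 0.0331). Uhrf2, on that same side and at 4717 bases the closest neighbour of any member, did not change measurably (0.01 ± 0.10). The remaining genes called lower were Mdm1, 751382 bases from Gm38403, and Cstf2t, 907400 bases from Gldc. Sox17, the nearest listed gene to Xkr4 at 819430 bases, rose by 1.32 ± 0.37 (adjusted p = 0.0312). Shared control of members and neighbours was not tested. The exons of the members did not overlap those of any listed gene, and 75-base stretches shared with other genes made up 0.499% of Gldc and 0% of the members other than Gldc and B4galnt2. In the GENCODE M21 annotation 1700029B22Rik is classed as antisense, and its span overlaps that of Fgfr2 on the opposite strand. Its exons shared no bases with exons of Fgfr2.

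Finally, the genes whose levels followed each member most closely over the 12 libraries, after each group's mean was removed, were listed by Pearson's r of log2 CPM. The values are the top 3 of all listed genes for each member over 12 mice that share libraries and depth, and are descriptions. For Kel, Gm38403 and 1700029B22Rik the Pparg-/-epi libraries held 0 to 4 counts each. Their part in these values of r, and in which genes came out on top, therefore cannot be read. Kel was followed by Vipr1, a neuropeptide receptor gene (r = 0.95), Rnf170 (0.94) and Casp8 (0.94). Gm38403 was followed by Alox5, the 5-lipoxygenase gene (0.91), Gm10782 (0.91) and Nkd2, an antagonist of Wnt signalling (0.90). Next to 1700029B22Rik stood Tnnt2 (0.97), Smndc1 (0.97) and Efna5 (0.95), and next to B4galnt2 stood Igfbp3, a carrier of insulin-like growth factors (0.96), Nkiras1 (0.95) and Gipc2 (0.95). Of these 12 genes, 7 were also called lower in Pparg-/-epi mice, beside 5.08% of all listed genes. They were picked from these same libraries and grouped by the 4 members that fell most, so nothing is read from this count. Gldc was followed by D17H6S53E (0.97), Oas1f (0.96) and Zfp706 (0.96), Xkr4 by Dclre1a (0.89), Wdr76 (0.87) and Rbl1 (0.85), and Pcmtd1 by Lrif1 (0.96), Orc5 (0.95) and Rnf170 (0.94). None of these 9 was called in either direction, beside 10.3% of all listed genes, and nothing is read from that count either. No sebaceous gene was among the top 3 of any member. The ranking took the highest r only, and r with Scd3 and with the sebaceous mean was negative among WT mice. A sebaceous gene could thus hardly have entered, and nothing is read from its absence.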

How the data were processed

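Dorsal epidermal scrapings of 6 WT and 6 Pparg-/-epi mice were sequenced as poly(A) RNA, with 1 library per mouse. The authors aligned the reads to mm10 with STAR (2.5.2b in the submitters' processing notes), left out reads of low mapping quality or with several positions, and assigned the rest to refGene genes with featureCounts of Subread 1.5.1. The deposited table holds these counts, not normalized, for 14533 genes, each above 0.5 CPM in at least 6 libraries, and 2800 blank rows were dropped. Groups, sex, age and RIN came from the sample labels, and the columns of mice 11 and 12 were matched by the mouse names in the study's list of samples. The number of columns that matched no sample was 0.

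Counts were scaled by TMM and tested with edgeR 4.0.16 (quasi-likelihood test, R 4.3.3) over all 14533 genes with Benjamini-Hochberg adjustment, for genotype, for sex and RIN with genotype in the model, and for the interaction of sex and genotype. Standard errors were derived from the test statistic. Every adjusted p is from this test unless a correlation is named. Correlations used log2 CPM with a prior count of 2 within each group and exact permutation tests (scipy 1.17.1). Scripts were tested on simulated counts. Alternatives were other scalings, edgeR's likelihood ratio test, DESeq2 1.42.0, a minimum mean of 10 counts, added covariates, the prefix of the mouse names as a block, subsets of mice and leaving out each library.

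The members and the gene lists were chosen with earlier results of these data known. Genes were named if they were members, sebaceous genes of the study, the 3 genes most like a member, the nearest 2 listed genes on either side of it, those of the family and marker lists, or the gene just outside the selection. Figures were drawn with matplotlib 3.10.9.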

Additional observations from a re-analysis of the deposited data

Results flagged for a closer look

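Within each group of 6 libraries, the gap between the highest or lowest library and its nearest neighbour was compared with the range of the group by Dixon's 95% limit, which chance passes in about 1 in 20 groups. Of the 14 groups (7 members in 2 genotypes) 2 passed, both for 1700029B22Rik. WT mouse 3 stood at 17.9003 CPM, from 168 counts, where the other WT mice ran from 1.92 to 7.59 CPM. This mouse had the smallest library of the series, 10120840 counts, and a RIN of 6.1, and without it the log2 fold change of 1700029B22Rik was -5.62. Pparg-/-epi mouse 12 stood at 0.343547 CPM, which is 4 counts, where the other Pparg-/-epi mice held 0 or 1 count. At these counts a gap of 3 reads is enough to pass the limit.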

How the results depend on the processing

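All 7 members kept a negative log2 fold change under each of the 23 alternatives to the comparison of genotypes. In 19 of them all 7 were called lower. Both results follow largely from how the members were picked, and neither is read as support for the fall. With the prefix of the mouse names as a block, added after the data were seen, 238 genes were called in place of 1493, and 1 member, B4galnt2. Compared with the 2 WT mice whose names lack the shared prefix, 389 genes were called, and 4 members, without Gldc, Xkr4 and Pcmtd1. Among the female mice alone 651 genes were called, and 6 members, without Xkr4. Leaving out each library in turn gave 1116 to 2249 genes (the highest without WT replicate 2, with 1303 higher and 946 lower) and 6 or 7 members, where Pcmtd1 missed the size threshold without WT replicate 4 at -0.59. The groups of all 7 members were apart under RLE and total-count scaling and those of 5 in unscaled counts. Leaving out 1 library leaves 7 by construction. For sex, edgeR's likelihood ratio test called 8 genes and DESeq2 140 in place of 2, with 2 to 3 when 1 library was left out, and no member in any of 16 alternatives (15 for Xkr4, which had no adjusted p in 1). For the interaction the likelihood ratio test called 4 genes in place of 0. For RIN, leaving out 1 library gave 0 to 3530 genes in place of 1910, with 0 in 6 of 12, the 6 named with that result. The causes of these changes were not tested, beyond the fewer mice that some of them use. None of the 42 relations with sebaceous genes passed under another scaling, a prior count of 0.5 or Spearman's rho, and the pairs of members were not recomputed in this way.

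No paired analysis was possible because the labels give no pairs of mice, and the groups have no number in common among 1 to 6 and 7 to 12. Depth limits Kel, Gm38403 and 1700029B22Rik in Pparg-/-epi mice, where each library held 0 to 4 counts, and Xkr4 in both groups, at 1 to 25 counts. The name prefixes overlap between the groups in 1 only, so genotype and prefix are separated by that pair of mice alone.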
